A study of Mus musculus with 29 samples.

Results

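The regions described here were those open in OFF bipolar cells and in no other sorted population of mouse retina, by the peaks called in each ATAC-seq library. A 200 bp region of the table counted as open in a population if its midpoint lay in a peak of both replicates, and as closed if it lay in a peak of neither. Of 110715 regions, 1669 (1.51%) were open in OFF bipolar cells (OFF-BC) and closed in green cones, blue cones, rods and ON bipolar cells (ON-BC), without a condition on unseparated bipolar cells (pan-BC). They made up 3.49% of the 47780 regions open in OFF-BC. The same rule with ON-BC and OFF-BC exchanged gave 10308 ON-BC-only regions. The regions were thus selected on the peaks of these libraries, and the ATAC-seq values of OFF-BC, ON-BC, rods and cones are given as a description. RNA-seq, the pan-BC libraries, double-sorted green cones, position and sequence took no part in the choice.

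The study compared gene expression and open chromatin among retinal neurons sorted by fluorescence. ON-BC and OFF-BC came from mice labelled Otx2-GFP+/-; Grm6-YFP+/+, in which GFP sits at the Otx2 locus and YFP is a transgene under the Grm6 promoter. OFF-BC were the GFP-positive cells without YFP and were sorted a second time, whereas ON-BC, which carry YFP, were sorted once. The paper estimates that rod bipolar cells make up the larger part of ON-BC, with ON cone bipolar cells as the rest. These types were not separated, so a region closed in ON-BC need not be closed in each of them. Each ON-BC and OFF-BC library was made from pooled retinas, at postnatal day 42 and 46 for ATAC-seq (2 libraries each) and between day 42 and 48 for RNA-seq (3 libraries each). For ATAC-seq, pan-BC were labelled with the same genotype as ON-BC and OFF-BC (days 43 and 44, 2 libraries), although the tables of the study do not agree on the transgene, and for RNA-seq with Otx2-GFP+/- alone (days 44 to 47, 3 libraries). The photoreceptors, all at day 56, were rods of Nrl-eGFP mice, photoreceptors of Nrl-eGFP mice that lack Nrl (NrlKO), which stand in for blue cones, and green cones of Opn1mw-GFP mice. Bipolar and photoreceptor libraries were made in different studies and at different ages, and neither can be told apart from the cell class. The labels do not say whether replicates came from separate litters, so the spread between libraries may be partly technical.

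Bipolar cells carry signals from photoreceptors to the inner retina. ON types sense glutamate through the metabotropic receptor encoded by Grm6, and OFF types through ionotropic kainate and AMPA receptors. Regions of open chromatin away from gene starts often hold enhancers, and in these cells many of them are bound by the homeodomain factors OTX2 and CRX and by basic helix-loop-helix factors, which recognise E-boxes.

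The sequences of 8 OFF-BC-only regions are shown first, because they hold the strongest accessibility in OFF-BC or lie near genes described below. They are the plus strand of GRCm38, read from the RefSeq assembly, and capitals mark 5 short motifs on either strand: the OTX and CRX type homeodomain site TAATCC, the homeodomain site TAATTA, and 3 E-boxes, namely CAGCTG, then the variant CAGATG and the variant CATATG. All 8 lie between genes or in introns.
Gm12911 region, chr4:67903540-67903739, intergenic: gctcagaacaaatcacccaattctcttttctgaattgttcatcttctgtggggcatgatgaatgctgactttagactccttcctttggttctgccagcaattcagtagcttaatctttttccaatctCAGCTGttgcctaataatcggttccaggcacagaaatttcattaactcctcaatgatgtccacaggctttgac
Col11a1 region, chr3:113951628-113951827, intergenic: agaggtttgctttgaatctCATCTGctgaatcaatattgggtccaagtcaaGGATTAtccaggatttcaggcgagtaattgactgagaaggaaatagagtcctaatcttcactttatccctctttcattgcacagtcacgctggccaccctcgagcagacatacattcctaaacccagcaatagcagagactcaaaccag
Tyw5 region, chr1:57528842-57529041, intergenic: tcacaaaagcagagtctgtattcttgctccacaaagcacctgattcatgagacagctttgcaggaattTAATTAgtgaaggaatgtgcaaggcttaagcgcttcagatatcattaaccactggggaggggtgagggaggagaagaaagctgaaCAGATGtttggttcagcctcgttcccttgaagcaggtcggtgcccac
Fat4 region, chr3:39244827-39245026, intergenic: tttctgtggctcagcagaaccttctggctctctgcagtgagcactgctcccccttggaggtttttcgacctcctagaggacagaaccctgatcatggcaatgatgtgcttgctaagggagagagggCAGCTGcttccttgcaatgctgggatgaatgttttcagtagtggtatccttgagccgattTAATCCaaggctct
Opcml region, chr9:27925684-27925883, intron of Opcml: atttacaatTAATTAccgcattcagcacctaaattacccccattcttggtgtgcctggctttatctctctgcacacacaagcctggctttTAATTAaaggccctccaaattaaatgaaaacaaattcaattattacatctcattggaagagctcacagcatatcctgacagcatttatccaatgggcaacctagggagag
Cacng3 region, chr7:122597529-122597728, intron of Prkcb: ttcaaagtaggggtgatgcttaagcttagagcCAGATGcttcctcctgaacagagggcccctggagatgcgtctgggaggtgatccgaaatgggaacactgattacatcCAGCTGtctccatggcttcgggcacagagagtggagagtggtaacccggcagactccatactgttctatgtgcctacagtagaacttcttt
Lsamp region, chr16:41172864-41173063, intron of Lsamp: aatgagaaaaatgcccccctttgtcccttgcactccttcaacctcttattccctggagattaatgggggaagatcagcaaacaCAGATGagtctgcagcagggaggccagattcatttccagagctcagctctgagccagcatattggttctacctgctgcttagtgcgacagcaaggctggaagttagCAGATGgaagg
Grik2 region, chr10:49256621-49256820, intron of Grik2: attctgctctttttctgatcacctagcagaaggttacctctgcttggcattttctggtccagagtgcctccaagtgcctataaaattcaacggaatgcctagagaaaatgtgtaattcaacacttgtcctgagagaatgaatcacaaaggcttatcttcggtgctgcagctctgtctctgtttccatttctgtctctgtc
The Col11a1 and Fat4 regions held an OTX and CRX type site together with an E-box, and the Tyw5 region held TAATTA together with an E-box. The Opcml region held TAATTA at positions 10 and 91, counted from 1 at the left end, and no E-box of the 3 kinds. The Grik2 region held none of these 5 motifs.

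Accessibility was low to moderate in the cells that defined the set. The median normalized count of the 1669 regions was 35.0 and 30.2 in OFF-BC replicates 1 and 2, from medians of 26 and 31 reads. ON-BC had medians of 11.9 and 11.7, from 8 reads in each library. Rods had 0.779 and 1.36, blue cones 2.59 and 2.17, green cones 4.61 and 5.63. ON-BC thus kept a low signal at most of these regions, and photoreceptors held less. No read was counted at 85 and 91 of the regions in the ON-BC libraries, against 821 and 674 in the rod libraries. Every OFF-BC library lay above every ON-BC library at 1531 regions (91.7%), against 23.3% of all regions, a share that the rule itself raises. OFF-BC replicate 1 was the higher of the pair at 64.6% of the OFF-BC-only regions and at 52.6% of all regions.

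**Figure D1:**
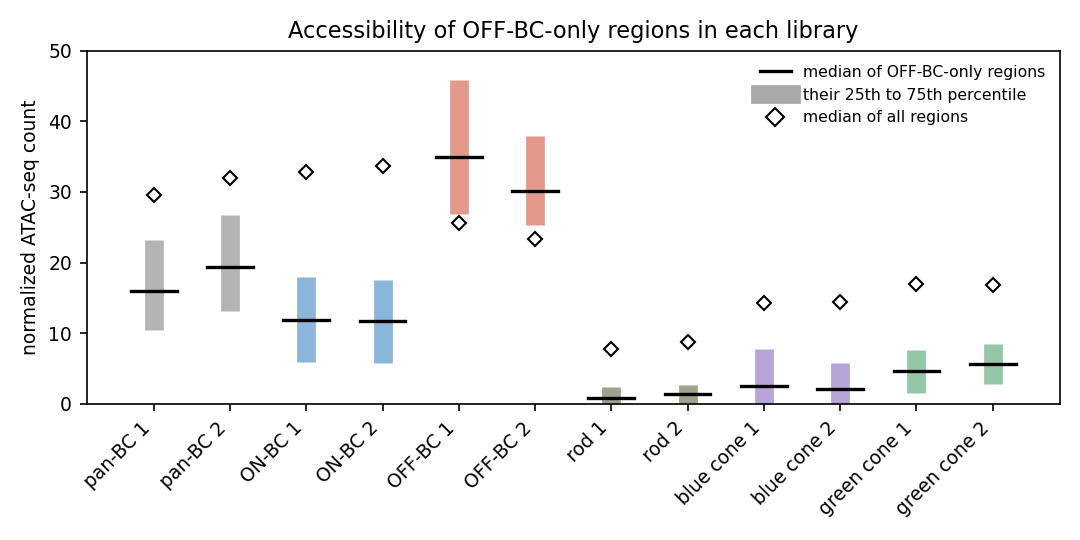
Normalized ATAC-seq counts of the 1669 OFF-BC-only regions in each of 12 libraries, as the median (line) and the 25th to 75th percentile (bar), with the median of all 110715 regions as a diamond. The medians of OFF-BC-only regions lie above those of all regions in the 2 OFF-BC libraries and below them in the other libraries, with pan-BC (16 and 19.4) above ON-BC (11.9 and 11.7).

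The set was not uniform in contrast. The OFF-BC mean was at least 4 times the ON-BC mean at 527 regions (31.6%), including 21 with no read in ON-BC, between 2 and 4 times at 669 (40.1%), and under 2 times at 473 (28.3%). At 28 regions the OFF-BC mean was below the ON-BC mean. Among the 10 regions with an ON-BC mean above 50 were one 3967 bp upstream of Rrs1, with 97.0 and 125 in OFF-BC and 116 and 116 in ON-BC, and one in an intron of Nav2, with 159 and 66.2 against 79.1 and 63.0. No ON-BC peak covered their midpoints, so absence of a peak did not always mean a lower count. In the limma fit over all regions, against a log2 fold change of 1, 74 of them (4.43%) passed as higher in OFF-BC than in ON-BC, beside 2.13% of the 108448 regions tested. Without OFF-BC replicate 1 there were 11 (0.659%, beside 0.734% of all regions), and without OFF-BC replicate 2 there were 21 (1.26%, beside 1.21%). The rule had fixed the direction from the same libraries, so these counts are no test of the set and nothing is read from them.

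The edge of the set followed the peak calls. The -log10 q of the peaks ran from 1.34 to 57.3 in OFF-BC replicate 1, with a median of 8.86 against 19.7 for all regions open in OFF-BC, and from 1.47 to 88.6 in replicate 2, with medians of 7.40 and 19.2. The 167 regions with the weakest peaks had median counts of 26.9 and 24.3 in OFF-BC. Just outside, 2009 regions had a peak in OFF-BC replicate 1 alone (medians 29.6 and 13.6), 1071 in replicate 2 alone (14.8 and 28.2), and 1414 were open in OFF-BC but had a peak in 1 of the 2 ON-BC libraries (36.4 and 31.2 in OFF-BC, 24.6 and 26.4 in ON-BC). An ON-BC peak came within 500 bp of the midpoint of 154 OFF-BC-only regions.

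The regions with the highest OFF-BC counts outside promoters ranged from 1631 bp to 418321 bp from a TSS. The region 418321 bp from the TSS of Gm12911 had normalized counts of 159 and 81.8 in OFF-BC, 5.97 and 7.32 in ON-BC and 19.2 and 56.4 in pan-BC, and none in rods or blue cones. The region 122268 bp upstream of Tyw5 had 127 and 71.1 in OFF-BC against 2.99 and 2.93 in ON-BC. The region 78812 bp upstream of Col11a1, which encodes a collagen chain, had 132 and 71.1 against 11.9 and 11.7. In all 3, replicate 1 of OFF-BC was well above replicate 2, and both were above every ON-BC library. Regions near Amph, Gm20752, Gm51287 (in an intron of F5), Gm20594 and Rasa4 completed the 10 highest away from promoters, with Nav2 and Rrs1, at OFF-BC means of 97.8 to 120. The 3 highest promoter regions were those of Wls, a carrier of secreted WNT proteins (133 and 68.1 in OFF-BC, 19.4 and 27.8 in ON-BC), Esam, an adhesion molecule (99.7 and 85.7 against 8.96 and 5.86), and Bhlhe40, a basic helix-loop-helix factor (117 and 67.2 against 76.1 and 55.6).

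Pan-BC libraries, which the rule did not use, held peaks over both replicates at 468 of the 1669 regions (28%, 95% Wilson interval 25.9% to 30.2%, counting error only), at 1 replicate for 716 (42.9%) and at neither for 485 (29.1%). Of the ON-BC-only regions 83.1% had a peak in both, and of all regions 58.6%. The 2 pan-BC libraries differed here, since 31.5% of the OFF-BC-only regions had a peak in replicate 1 and 67.5% in replicate 2, which was also sequenced more deeply (12345845 against 7937202 counted reads). The pan-BC medians, 16 and 19.4, lay between those of ON-BC and OFF-BC. Both pan-BC libraries exceeded both ON-BC libraries at 808 regions (48.4%), against 17.8% of all regions. Both pan-BC libraries lay below both OFF-BC libraries at 1278, for which no share over all regions was counted, so nothing is read from it. Both lay below ON-BC at 58 (3.48%), against 20.2% of all regions. The ON-BC and OFF-BC side of these comparisons was the one the rule had used. The share with a peak in both pan-BC libraries fell with contrast, from 44.2% of regions under 2-fold to 29.3% between 2 and 4 and 12% at 4-fold or more. At the 485 regions without a pan-BC peak the OFF-BC medians were 31.0 and 28.2 and the pan-BC medians 10.4 and 10.8.

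The double-sorted green cone libraries, which lay outside the rule, had a peak at 103 (6.17%) and 17 (1.02%) of the OFF-BC-only regions, against 40% and 27.4% of all regions, and both had one at 7.

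OFF-BC-only regions were mostly distal. Of the 1669, 81 (4.85%) lay in a promoter, taken as 1000 bp upstream to 100 bp downstream of a RefSeq TSS, against 1.55% of ON-BC-only regions and 14.9% of all regions. Introns held 749 (44.9%), intergenic sequence 848 (50.8%) and exons 72. The median distance to a TSS was 45157 bp, against 56853 bp for ON-BC-only regions and 20505 bp for all. The median GC content was 48%, against 44.5% and 50%. The regions were spread over the autosomes and X, from 1.19% of the regions of X to 1.84% of those of chromosome 16, and 327 of them (19.6%) had another OFF-BC-only region within 100 kb.

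Motifs were counted as exact letter matches on both strands of each 200 bp region, as a description without a test. E-boxes were more frequent than among all regions. CAGATG was present in 34% of the OFF-BC-only regions (567), 34.9% of ON-BC-only regions and 22.3% of all regions. CAGCTG was in 25.2%, 23.8% and 18% of them, and CATATG in 5.33%, 4.97% and 3.49%. In contrast, the OTX and CRX type site TAATCC was less frequent than in either comparison set, at 15.5% (259 regions, Wilson interval 13.9% to 17.3%) against 28.4% and 21.8%. TAATTA, the site of many other homeodomain factors, was more frequent, at 7.61% (127 regions, 6.43% to 8.98%) against 4.84% and 5.2%. The pair of inverted homeodomain core sites AATNNNATT, which can overlap a TAATTA match, was in 6.65% against 13.1% and 6.85%. At least 1 of the 3 homeodomain motifs was found in 26.3% of the OFF-BC-only regions, at least 1 E-box in 54.3%, both in 12.6% and neither in 31.9%.

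Among the other motifs, the nuclear factor I core TTGGCA was in 15% of OFF-BC-only, 14.2% of ON-BC-only and 10.6% of all regions. The nuclear receptor core AGGTCA differed little, at 16.4%, 15.5% and 15.6%. The CTCF core AGGGGGC was in 5.21%, 1.93% and 7.07%, and the EBF core CCCNNGGG in 5.33%, 3.73% and 7.34%. The MEF2 site TATTTNTAG was in 1.98%, 3.85% and 1.78%, the AP-1 site TGANTCA in 5.81%, 10.1% and 7.09%, the MAF core TGCTGAC in 4.25%, 4.92% and 4.35%, and the GC box GGGGCGGGG in 0.959%, 0.708% and 4.48%. Several motifs were more frequent where the contrast between OFF-BC and ON-BC was larger. TAATCC was present in 12.1% of regions under 2-fold, 14.9% between 2 and 4 and 19.4% at 4-fold or more, and TAATTA in 5.29%, 6.28% and 11.4%. CAGCTG (22.6%, 25.4% and 27.1%), CATATG (4.23%, 5.23% and 6.45%), the MEF2 site (1.27%, 1.49% and 3.23%) and the nuclear factor I core (14%, 14.3% and 16.7%) had the same order. AATNNNATT was in 6.13%, 5.53% and 8.54%. The CTCF core was in 8.88%, 3.44% and 4.17% of these classes. Others did not have this order either: CAGATG (30.4%, 35.4% and 35.3%), the nuclear receptor core (15.6%, 16.7% and 16.5%) and the AP-1 site (5.71%, 6.58% and 4.93%). The EBF core was in 5.92%, 4.48% and 5.88%, and the MAF core in 3.81%, 4.93% and 3.8%. The GC box had the reverse order (1.48%, 1.2% and 0.19%). Contrast was itself measured in the libraries that chose the regions.

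**Figure D2:**
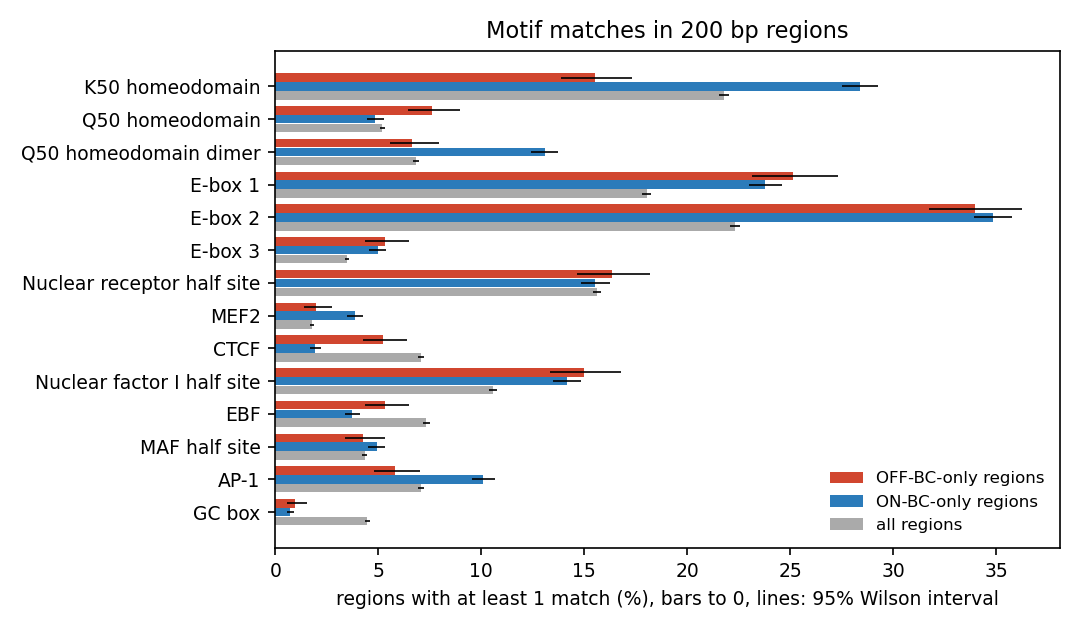
Share of 200 bp regions with at least 1 match to each of 14 motifs (x axis, percent, starting at 0) in OFF-BC-only, ON-BC-only and all regions, with 95% Wilson intervals as lines. K50 stands for the site TAATCC and Q50 for the site TAATTA, the dimer is AATNNNATT, and E-box 1 is CAGCTG, E-box 2 is CAGATG and E-box 3 is CATATG. The K50 bar of OFF-BC-only regions (15.5%) is the shortest of its 3, and their E-box bars are close to those of ON-BC-only regions.

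RNA-seq gave a readout that the rule had not used. The nearest genes of the 1669 regions numbered 1463, of which 1303 were found in the RNA table (63 by an older symbol) and 879 passed the filter on low counts. Of these 879, 104 (11.8%) were called higher in OFF-BC than in ON-BC and 50 (5.69%) higher in ON-BC, by limma on log2(normalized count + 1) against a log2 fold change of 1. Over all 14024 genes tested the shares were 3.6% and 2.95%. In each of the 104 genes every OFF-BC library lay above every ON-BC library, and in each of the 50 the reverse held. The call was made on the same libraries and itself favours such separation, which is therefore not read as a trait of these genes. Their log2 changes ran from 1.55 to 7.96 (median 3.59) and from -1.53 to -6.24 (median -3.62). Among the genes nearest to ON-BC-only regions, 176 of 3120 (5.64%) were higher in OFF-BC and 246 (7.88%) in ON-BC. In bulk libraries, fewer cells of a type and less RNA per cell cannot be told apart.

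The share of genes higher in OFF-BC varied with the kind of region. It was 25.4% (15 of 59) for genes with an OFF-BC-only region in a promoter, of which 1 was higher in ON-BC, and 17.3% (35 of 202) where the closest region lay within 10 kb. Beyond that it was 10.2% from 10 to 100 kb (47 of 462) and 10.2% farther away (22 of 215). With 1, 2, and 3 or more regions, the shares were 10.5% (80 of 759), 16.8% (17 of 101) and 36.8% (7 of 19). With the largest ratio of OFF-BC to ON-BC accessibility under 2, they were 5.24% higher in OFF-BC and 8.47% higher in ON-BC (13 and 21 of 248). At a ratio of 4 or more they were 16.1% and 3.42% (47 and 10 of 292). Genes nearest to an OFF-BC-only region and to no ON-BC-only region were higher in OFF-BC in 13.5% and higher in ON-BC in 3.24% of 370. Where both kinds of region were nearest, the shares were 10.6% and 7.47% of 509.

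**Figure D3:**
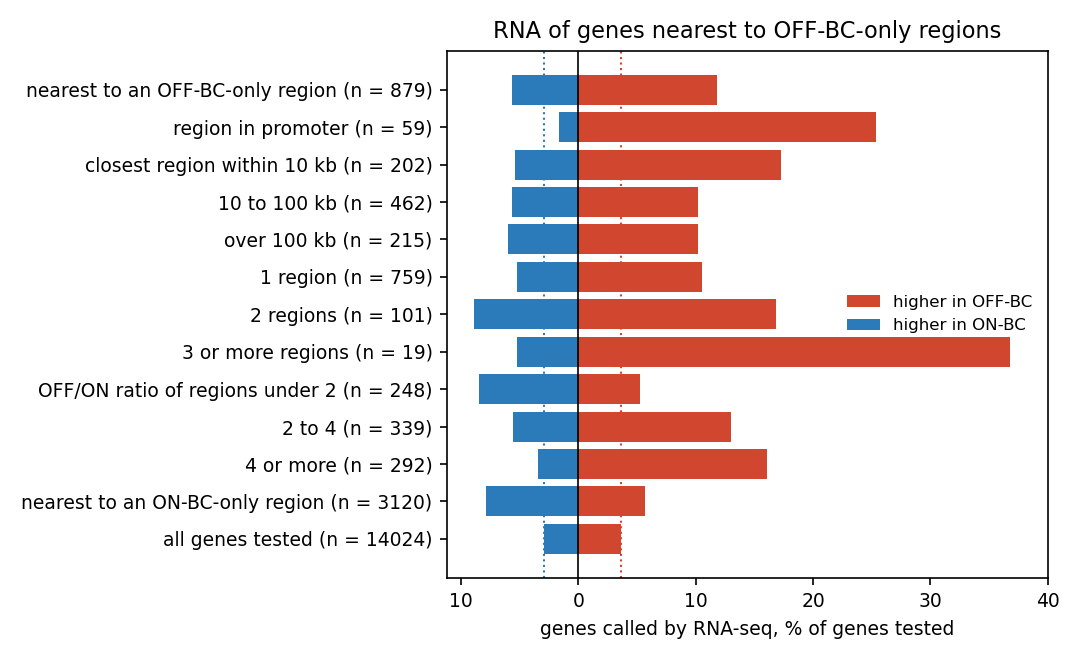
Percent of tested genes called higher in OFF-BC (right of 0) or in ON-BC (left of 0) by RNA-seq, for genes nearest to OFF-BC-only regions and for subsets of them, with the shares over all genes as dotted lines (3.6% and 2.95%). The share higher in OFF-BC is 11.8% for all genes nearest to these regions and 36.8% for the 19 with 3 or more.

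Most genes higher in OFF-BC had no such region nearest to them. Of the 505 genes called higher in OFF-BC, 104 (20.6%) were nearest to an OFF-BC-only region and 176 (34.9%) to an ON-BC-only region, of which there were 10308. Of the 414 called higher in ON-BC, 50 (12.1%) and 246 (59.4%) were. Pan-BC RNA lay between ON-BC and OFF-BC, without overlap, at 97 of the 104 genes. Pan-BC hold both ON and OFF cells, and no share over all called genes was counted. This number is therefore not read as a trait of genes near these regions. Against rods, 438 of the 879 genes (49.8%) were higher in OFF-BC and 89 (10.1%) lower, with 27.1% and 15.5% over all genes. Against blue cones the numbers were 376 (42.8%) and 72 (8.19%), with 21.8% and 13.7% over all genes. A group of 80 genes (9.1%) was higher in OFF-BC than in ON-BC, rods and blue cones alike, against 2.08% of all genes tested.

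RNA of cell type markers was compared between the sorted cells. The lists were chosen with earlier results of these data known, so the counts are a description and no independent check of identity. Over all genes tested, limma called 3.6% higher in OFF-BC and 2.95% higher in ON-BC. Of 22 markers of OFF types, 13 were called higher in OFF-BC by limma (15 by edgeR, which called 1 higher in ON-BC), and their summed normalized counts were 72539 to 97548 in OFF-BC and 4955 to 6029 in ON-BC. Of 21 markers of ON types, 14 were called higher in ON-BC, and their sum was 390392 to 406327 there and 45485 to 73767 in OFF-BC. Cone genes moved with OFF-BC: 6 of 7 were called higher than in ON-BC, and their sum was 22439, 20860 and 90608 in OFF-BC replicates 1 to 3, 4071 to 4703 in ON-BC and 40656 to 66441 in pan-BC. No cone or rod marker was nearest to an OFF-BC-only region, but the rule had required closure in rods and cones. That absence therefore says nothing about cone RNA in OFF-BC. Of the 104 nearest genes higher in OFF-BC than in ON-BC, 1 (Wwc1) was over 16-fold higher in rods or blue cones. Without OFF-BC replicate 3 the counts of nearest genes were 93 higher in OFF-BC and 52 in ON-BC (10.4% and 5.82%, beside 3.16% and 3.02% of all genes). Rod markers were called higher in ON-BC, 7 of 7, with sums of 940 to 1448 in OFF-BC and 17268 to 21029 in ON-BC. Sums for Muller glia were 2665 to 3594 in OFF-BC and 1208 to 1461 in ON-BC, with Sox9 called, and for amacrine cells 923 to 1113 and 327 to 483, with Slc6a9 called. Sums were 34.6 to 88.9 in OFF-BC and 83.6 to 119 in ON-BC for horizontal cells, 46.9 to 83.9 and 102 to 171 for ganglion cells, and 21.0 to 40.8 and 36.1 to 43.1 for endothelial cells, with no marker called by limma or edgeR and 1, of ganglion cells, at an unadjusted limma p below 0.05. Of the 3 microglial markers Csf1r was called, with sums of 21.2 to 65.1 against 2.05 to 12.7. Of the 6 Muller glia markers, 3 (Rlbp1, Glul and Slc1a3) were nearest to an OFF-BC-only region, beside 5.42% of all genes of the RNA table. Of the 4 horizontal cell markers, 1 (Calb1) was. None of the amacrine, ganglion, microglial or endothelial markers was. The part of any of these cells in the regions was not tested.

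Fat4, which encodes a large atypical cadherin, had the most OFF-BC-only regions. All 7 were intergenic, from 79223 bp upstream to 465520 bp downstream of its TSS, and 5 of them lay within 135 kb of each other. The strongest, 357987 bp downstream, whose sequence is given above, had 80.8 and 64.2 in OFF-BC, 2.99 and 11.7 in ON-BC, and 17.6 and 41.1 in pan-BC. The other 6 had OFF-BC means of 27.2 to 33.1. At all 7 both OFF-BC libraries lay above both ON-BC libraries, as at 91.7% of all OFF-BC-only regions, an order that the rule itself favours. Normalized RNA counts of Fat4 were 1509, 2146 and 1365 in OFF-BC, 12.4, 50 and 5.13 in ON-BC, 487 to 653 in pan-BC, and at most 6.77 in rods and blue cones. Its log2 change between OFF-BC and ON-BC was 6.67 (standard error, SE, 0.59, adjusted p = 2.34e-06 by limma).

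**Figure D4:**
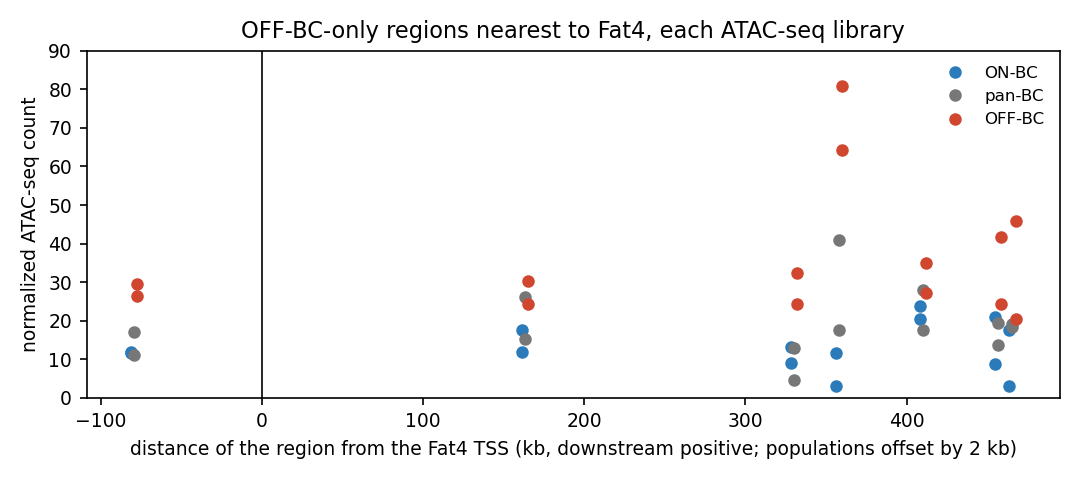
Normalized ATAC-seq counts of the 7 OFF-BC-only regions nearest to Fat4 in each ON-BC, pan-BC and OFF-BC library, against the distance of the region from the TSS in kb. The populations are offset by 2 kb. The region with the highest OFF-BC counts (80.8 and 64.2) lies far downstream. Both OFF-BC libraries lie above both ON-BC libraries at each region, an order that the rule itself favours.

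Several other genes with OFF-BC-only regions encode adhesion or matrix proteins. Lsamp, a neuronal adhesion molecule, had 4 OFF-BC-only regions and 12 ON-BC-only regions. At its region shown above, the counts were 32.3 and 38.0 in OFF-BC and 0 and 8.78 in ON-BC. Its RNA was at 1171, 1063 and 793 in OFF-BC against 105, 174 and 97.5 in ON-BC, a log2 change of 3.03 (SE 0.30, adjusted p = 0.000109 by limma). Opcml, of the same family, had 464, 386 and 353 in OFF-BC and 0, 3.92 and 1.03 in ON-BC (log2 change 7.54), and its intronic region had 47.1 and 38.9 against 5.97 and 2.93. Esam rose from 69.1, 55.9 and 42.1 in ON-BC to 14204, 12160 and 13199 in OFF-BC (log2 change 7.89, SE 0.44, adjusted p = 1.15e-08 by limma). Col11a1 had 635, 943 and 746 in OFF-BC and 4.10 to 10.8 in ON-BC (log2 change 6.66), and Postn, the matrix protein periostin, 348 to 514 against 1.03 to 6.86 (6.61). No library of one population overlapped the other at any of these genes. For Opcml, Esam, Col11a1 and Postn this was a condition of their choice among the largest calls. Changes of genes with few reads in ON-BC depend on the 1 added before the logarithm.

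Ionotropic glutamate receptor genes, through which OFF types receive their input, were nearest to such a region in 5 of the 16 listed, where 5.42% of all genes of the RNA table were. Grik2, a kainate receptor subunit, had 2 intronic regions, one of them with 25.6 and 37.0 in OFF-BC and 10.5 and 11.7 in ON-BC. Its RNA was at 93.9, 177 and 153 in OFF-BC and 0, 7.84 and 5.13 in ON-BC (log2 change 5.18, SE 0.62, adjusted p = 9.77e-05 by limma). Neto1, a kainate receptor auxiliary subunit, had a promoter region with 48.5 and 38.9 in OFF-BC and 26.9 and 23.4 in ON-BC, and RNA of 225, 660 and 464 against 6.19, 2.94 and 3.08 (log2 change 6.40). Cacng3, an auxiliary subunit of AMPA receptors, was nearest to 2 regions in introns of its neighbour Prkcb, with 47.1 and 56.5 in OFF-BC against 11.9 and 8.78 in ON-BC at the stronger one. Cacng3 RNA was at 249, 221 and 243 in OFF-BC and 10.3, 41.1 and 12.3 in ON-BC (log2 change 3.69, limma adjusted p = 0.00222). Cacng4 was lower in level, at 50.3, 61.3 and 45.2 against 5.16, 6.86 and 9.23 (2.74). Cacng5 went the other way without a call, at 12.3, 60.1 and 66.2 in OFF-BC and 226, 219 and 133 in ON-BC (log2 change -2.32, limma adjusted p = 0.507). Over the whole list, 6 of 13 tested genes were called higher in OFF-BC and 0 in ON-BC by limma, by edgeR and at an unadjusted limma p below 0.05 alike, and the median log2 change was 1.52, against 0.02 over all genes. The limma shares over all genes tested were 3.6% and 2.95%.

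Of 32 bipolar transcription factors listed, 6 were nearest to an OFF-BC-only region, again beside 5.42% of all genes. Fezf2, a zinc finger factor, had 2687, 2331 and 2567 normalized RNA counts in OFF-BC and 15.5, 14.7 and 15.4 in ON-BC, a log2 change of 7.29 (SE 0.35, adjusted p = 2.87e-09 by limma). Its region, 51857 bp upstream in an intron of Cadps, had modest contrast, with 47.1 and 35.0 in OFF-BC and 26.9 and 19.0 in ON-BC, and a peak in both pan-BC libraries. Ebf1, a factor of the EBF family, had 458, 1174 and 737 against 20.6, 20.6 and 22.6 (log2 change 5.05), and an intronic region at 25.6 and 30.2 against 5.97 and 8.78. Bhlhe23, a basic helix-loop-helix factor, was higher in ON-BC, with 494, 513 and 647 in OFF-BC and 2463, 2448 and 2625 in ON-BC (log2 change -2.20, limma adjusted p = 0.00252). Its region, 12164 bp upstream, had 25.6 and 23.4 in OFF-BC and 11.9 and 10.2 in ON-BC, the opposite order to its RNA. Nfia (log2 change -0.81), Rorb (-0.56) and Zfhx3 (-0.08) were not called. Over the list, 6 of 32 factors were higher in OFF-BC and 8 in ON-BC, beside 3.6% and 2.95% of all genes tested.

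Among genes of signalling and metabolism, Tacr3, the neurokinin receptor that marks some OFF types, had 1801, 2749 and 1734 RNA counts in OFF-BC and 18.6, 18.6 and 2.05 in ON-BC (log2 change 7.60, SE 0.81, adjusted p = 1.40e-05 by limma). Its intronic region was weak, at 24.2 and 30.2 in OFF-BC against 5.97 and 11.7 in ON-BC, and had no pan-BC peak. Erbb4, a neuregulin receptor, had 298, 352 and 250 against 5.16, 3.92 and 1.03 (6.24), but at its region OFF-BC (21.6 and 22.4) overlapped ON-BC (23.9 and 17.6). Fam19a4, now named Tafa4, which encodes a secreted protein, had 2322, 2023 and 1890 against 15.5, 5.88 and 4.10, with a log2 change of 7.96, the largest of the 104. Cyp4b1, a cytochrome P450 enzyme, had 122 to 163 in OFF-BC and no read in any ON-BC library, at least 46.2-fold higher when 3 reads a library are taken as the limit. Ifit3, an interferon-induced gene (404 to 627 against 0 to 7.84), and BC030500 (568 to 834 against 2.94 to 11.4) were also among the 12 largest.

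**Figure D5:**
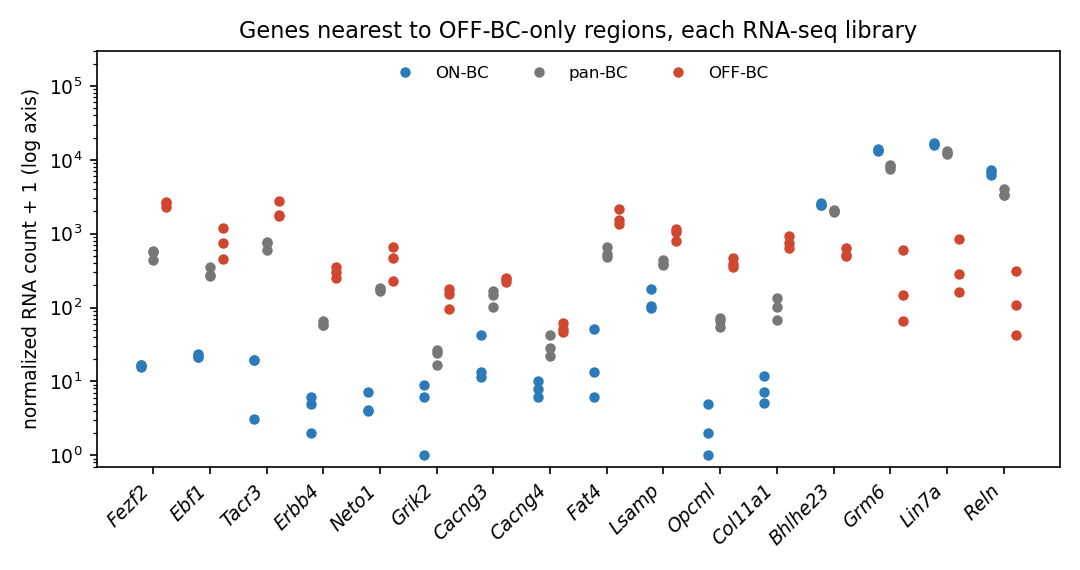
Normalized RNA count plus 1 (log axis) of 16 genes nearest to OFF-BC-only regions, 1 point for each of 3 ON-BC, 3 pan-BC and 3 OFF-BC libraries. The first 12 genes are higher in OFF-BC, Bhlhe23, Grm6, Lin7a and Reln are higher in ON-BC, and pan-BC lies between the 2 populations at each of the 16 genes.

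Some OFF-BC-only regions lay nearest to genes higher in ON-BC. Lin7a, a synaptic scaffold protein, had 16127, 17068 and 15952 RNA counts in ON-BC and 285, 160 and 836 in OFF-BC (log2 change -5.60, SE 0.44, adjusted p = 9.26e-07 by limma), and its region in the 5' UTR had 70.1 and 35.0 in OFF-BC against 28.4 and 26.4 in ON-BC. Reln, the extracellular protein reelin, had 6307, 7343 and 6735 against 106, 42.1 and 311 (-5.91), with an intronic region at 35.0 and 20.4 in OFF-BC and 17.9 and 8.78 in ON-BC. Tacr1, the receptor for substance P, had 206, 335 and 231 against 10.1, 0 and 13.2 (-5.55), and its intronic region 36.4 and 27.3 in OFF-BC against 5.97 and 4.39 in ON-BC, the opposite direction to its RNA. Fam20a (-5.91), Chst9 (-5.76), Ppap2b (-5.49) and Hs3st4 (-5.26) were the others among the 8 largest. Grm6 itself was the first of them, at 13260, 13835 and 13401 in ON-BC and 145, 64.9 and 593 in OFF-BC (-6.24, limma adjusted p = 2.70e-06). Its region, 3448 bp upstream of the TSS, was at 56.6 and 66.2 in OFF-BC, 108 and 129 in ON-BC and 26.4 and 17.7 in pan-BC, so that ON-BC had more reads but no peak.

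Several genes with many OFF-BC-only regions showed no change in RNA past the test. Actr3, a subunit of the actin-nucleating complex, had 4 intergenic regions, 56643 to 396613 bp from its TSS, with OFF-BC means of 22.9 to 55.9, and RNA of 563, 648 and 726 in OFF-BC and 575, 568 and 546 in ON-BC (log2 change 0.19). Amph, the endocytic protein amphiphysin, had 3 regions and a log2 change of 0.61. Gabrb2, a GABA-A receptor subunit, had 3 regions and 7208, 9708 and 6395 RNA counts in OFF-BC against 2336, 2604 and 2146 in ON-BC, a log2 change of 1.70 that missed the test against 1 by limma (adjusted p = 0.698) and passed it by edgeR (adjusted p = 0.0493). Cmip had 3 regions and a log2 change of -0.14. Gm5099, with 4 regions that all lay in introns of Aff3, was not in the RNA table, and 1600027J07Rik, with 4, was listed at 0 in every library. Lrrtm1, a synaptic adhesion molecule on the list of ON markers, had 2 OFF-BC-only and 9 ON-BC-only regions, and RNA of 67.1, 56.5 and 116 in OFF-BC, 79.5, 121 and 83.1 in ON-BC and 350 to 547 in pan-BC (log2 change -0.29 between OFF-BC and ON-BC). The paper describes Lrrtm1 as specific to BC5D, a rare ON type with low Grm6-YFP. By its account the sort left these cells out of both ON-BC and OFF-BC. The nearest gene was the host gene for 515 of 749 intronic regions (68.8%), so an assignment to the nearest TSS passes over some host genes.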

How the data were processed

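The study's authors aligned ATAC-seq reads to GRCm38 with Bowtie2, removed PCR duplicates and long (nucleosomal) fragments, called peaks with MACS2 and counted reads in 200 bp regions. RNA-seq reads were aligned with STAR, and HTSeq gave counts per RefSeq gene. The deposited tables hold a signal: the read counts, scaled by the authors with 1 size factor for each library. The deposited peak files list, for each peak, a score, the fold enrichment of the summit over background, and p and q values as -log10, all from MACS2. All 1212862 values above 0 for regions and 230384 for genes were whole multiples of 1 read (100% within 0.01 read). Recovered reads were 4176776 to 12345845 a library for ATAC-seq and 12329548 to 26266746 for RNA-seq. Double-sorted green cones had peaks only.

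Features that passed edgeR's filterByExpr (14024 of 24062 genes, 108448 of 110715 regions) were tested with limma 3.58.1 (treat, log2 fold change of 1, trended prior) on log2(normalized count + 1), which understates changes of features with few reads. All 15 RNA-seq or 12 ATAC-seq libraries entered 1 model with 1 level for each population (both cones as 1 for ATAC-seq), and adjusted p-values (Benjamini-Hochberg over all features) below 0.05 were called. EdgeR 4.0.16 and DESeq2 1.42.0 on recovered reads were alternatives. Fits of pan-BC against rods and cones are not reported, since the rule had used those libraries. The script was tested on simulated data with a spread fixed in advance. For RNA-seq, limma called 52 of 100 genes changed 4-fold and 100 of 100 changed 16-fold. For ATAC-seq it called 5 of 100 regions changed 4-fold and 86 of 100 changed 16-fold, so most 4-fold changes of regions were missed. No unchanged feature was called. The nearest TSS came from 45756 RefSeq transcripts of GRCm38.p6. The RNA table lists 27 genes under names in date form, which were not matched. Named genes were the 8 with most regions, the 12 and 8 largest calls in each direction without overlap, and all list genes nearest to a region. Named regions were the 10 distal and 3 promoter regions with the highest OFF-BC mean and those nearest to named genes. The regions and lists were chosen with earlier results of these data known. No sequence of chromosome 18 is shown.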

Additional observations from a re-analysis of the deposited data

How the results depend on the processing

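Replicate peaks set the size of the set. With 1 library of a population left out it held 1686 to 3678 regions (2740 without OFF-BC replicate 1, 3678 without replicate 2), and the share with pan-BC peaks ranged from 31.5% to 67.5%. The other rules gave 1257 to 1635 regions. Without 1 library, genes nearest to a region and higher in OFF-BC numbered 90 to 101 (10.1% to 11.3%, beside 2.92% to 3.52% of all genes). Those higher in ON-BC numbered 41 to 52 (4.6% to 5.82%, beside 2.44% to 3.02%). Tested against a log2 fold change of 0, the 2 counts were 262 and 144 (29.8% and 16.4%, beside 14.2% and 12.8% of all genes). By edgeR they were 139 and 66 (15.8% and 7.51%, beside 4.69% and 4.06%). By DESeq2 they were 118 and 57 (13.4% and 6.48%, beside 3.79% and 3.2%). With a TSS within 50 kb they were 62 and 28 of 527. With the host gene in place of the nearest gene, which was chosen after seeing the data, they were 105 and 55 of 920. These last 2 settings used the main calls, 3.6% and 2.95% of all genes tested. Accessibility calls numbered 155 by edgeR (9.29%, beside 3.44% of all regions), 115 with blue and green cones as 2 levels (6.89%, beside 2.8%), and 11 to 72 without 1 library. Without ON-BC replicate 1 they were 72 (4.31%, beside 1.91%) and without ON-BC replicate 2 they were 57 (3.42%, beside 1.66%). Without OFF-BC replicate 1 they were 11 (0.659%, beside 0.734% of all regions) and without OFF-BC replicate 2 they were 21 (1.26%, beside 1.21%), so the share was then near that of all regions. Same-numbered ON-BC and OFF-BC libraries did not deviate together (RNA-seq correlations -0.0763, 0.222 and -0.0649). A fit with the replicate block gave 102 and 49 genes (11.6% and 5.57%, beside 3.54% and 2.92% of all genes). It gave 79 regions (4.73%, beside 2.19% of all regions).

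In the central 100 bp, which hold fewer letters, shares are for OFF-BC-only, ON-BC-only and all regions in turn. TAATCC was in 10.8%, 20.2% and 16.2%, TAATTA in 4.37%, 2.28% and 2.84%, and AATNNNATT in 3.54%, 7.02% and 3.67%. CAGCTG was in 16.4%, 16.2% and 11%, CAGATG in 23.2%, 24.7% and 14.4%, and CATATG in 2.64%, 2.51% and 1.76%. The nuclear receptor core was in 9.65%, 8.66% and 9.05%, MEF2 in 0.959%, 2.25% and 1.02%, and CTCF in 3.42%, 1.04% and 4.85%. Nuclear factor I was in 7.91%, 7.55% and 5.41%, EBF in 2.52%, 1.46% and 3.61%, and MAF in 2.46%, 2.61% and 2.38%. AP-1 was in 3.0%, 5.81% and 3.99%, and the GC box in 0.479%, 0.33% and 2.72%. Outside promoters TAATCC was in 16%, 28.6% and 24.6%, and the GC box in 0.693%, 0.591% and 1.92%. Of 468 alternatives for named genes, 461 kept direction and side of the threshold. The log2 change of Zfhx3 ran from -0.24 (without OFF-BC replicate 2) to 0.01 (without OFF-BC replicate 3). Median reads at the regions were 26 and 31 in OFF-BC and 8 in each ON-BC library, and the part of depth in the number of calls was not tested.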

Other observations

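The region upstream of Grm6 lay among other open regions of that gene, whose promoter also drives the YFP transgene used in the sort. At 8025 bp upstream of the TSS the normalized ATAC-seq counts were 2.69 and 13.6 in OFF-BC against 384 and 356 in ON-BC, with 110 and 45.6 in pan-BC. At 187 bp downstream they were 13.5 and 16.5 in OFF-BC against 303 and 384 in ON-BC, with 34.4 and 30.8 in pan-BC. The OFF-BC-only region between them, 3448 bp upstream, had 56.6 and 66.2 in OFF-BC and more, 108 and 129, in ON-BC. Pan-BC (26.4 and 17.7) lay below both there. The same order held at 9109 bp upstream, with 345 and 328 in OFF-BC, 400 and 408 in ON-BC and 114 and 89.5 in pan-BC. It also held at 2294 bp upstream, with 113 and 134, 143 and 212, and 55.2 and 45.6. At 743 and 2021 bp downstream pan-BC overlapped ON-BC. The part of the transgene in these counts was not tested.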
